A study of Mus musculus with 2 samples.

Results

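Long non-coding RNAs are long transcripts that are not annotated as coding for a protein. Described here in mouse gut myofibroblasts are 6 named genes that RefSeq types so: U90926, Neat1, Malat1, Meg3, Rian and H19. The type alone does not show whether an RNA is translated. They were picked by name, and U90926 was picked from these same values for its large difference between the conditions, so that its difference is given as a description. The rule took probesets (sets of array probes) that the platform annotation pairs with exactly 1 gene and let the probeset with the highest mean stand for the gene. It gave a value for 5 of the 6 genes, out of 22180 genes measured in all. H19 has no probeset of its own, and the probeset it shares with the microRNA gene Mir675 is given separately.

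Stimulated cells were subepithelial myofibroblasts from wild-type small bowel (BALB/c mice) and exposed for 1 day to homogenised intestinal eosinophils (5 mg/ml). Non-stimulated cells were the same cells kept without homogenate. RNA of triplicate cultures was pooled before hybridisation to a GeneChip Mouse Gene 2.0 ST array, so that each condition is 1 array, with no replicate, no error and no test. The comparison addresses what a gut stromal cell transcribes after contact with eosinophil material, and every difference below describes these 2 pools only.

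Each of these RNAs has a known setting. Neat1 RNA is the scaffold of paraspeckles, nuclear bodies built with the RNA-binding proteins Sfpq, Nono and Pspc1. Malat1, its neighbour in the genome, is an abundant RNA of nuclear speckles, where splicing factors gather, and its 3′ end is made by RNase P rather than by polyadenylation. Meg3 and Rian are expressed from the maternal chromosome in the imprinted domain that lies between Dlk1 and Dio3, Rian as a host of small nucleolar RNAs. H19 is the maternally expressed partner of the paternally expressed growth factor gene Igf2, and it carries Mir675 within its transcript. U90926 is a mouse RNA best known from inflammatory and fat cell settings, where it has been linked to restraint of adipocyte differentiation.

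The RefSeq tables (build GRCm38.p6) hold the sequences tied to the readings that matter most here. The window around the annotated start of U90926 is shown because this was the gene with the large difference. It covers chr5:92215359-92215658 on the minus strand, from 250 bases before the start to 50 bases after it. The capitals mark the longest run of the repeated unit AC, counted in whole units.
U90926 start window: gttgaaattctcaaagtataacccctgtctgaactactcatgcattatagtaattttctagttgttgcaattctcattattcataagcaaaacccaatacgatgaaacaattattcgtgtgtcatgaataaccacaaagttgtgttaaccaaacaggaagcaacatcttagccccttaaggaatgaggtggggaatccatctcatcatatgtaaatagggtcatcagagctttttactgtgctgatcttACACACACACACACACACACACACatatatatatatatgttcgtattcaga

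The annotated start of U90926 falls inside a simple repeat. The AC run is 24 bases long and spans bases 250 to 273 of the window, so it begins at the base before the start and runs into the transcript. A run of AC or GT at least this long was present in 40 of 32851 start windows of the table, or 0.122%. In the start windows of Malat1, Meg3 and Rian, which the same table holds, the longest such run, counted in whole units, was 4 bases. The run was noticed by eye and then measured.

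Motifs of inflammatory transcription factors were also searched on both strands of the 300 bases. The window of U90926 held no match to the NF-kB consensus (present in 8.46% of all windows), to the AP-1 motif TGANTCA (7.81%), to the C/EBP motif TTGCNNAA (10.8%), to the STAT motif TTCNNNGAA (8.30%), to the interferon-stimulated response element (3.44%) or to the TATA box TATAAA (13.6%). This says only that these letters are not in this window. Among Malat1, Meg3 and Rian, Rian had 1 STAT match and the first of both Meg3 windows had 2 overlapping TATA matches. No window was available for Neat1 or H19, so neither was searched.

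The second set of sequences belongs to the microRNAs that share a probeset with H19 or Meg3, since those probesets cannot be read for the long RNA alone. Mir675 lies at chr7:142577064-142577147 within H19 and Mir770 at chr12:109563692-109563785 within Meg3. Mir1906-1, also within Meg3, and Mir1906-2 on chromosome X have the same mature sequence. The capitals mark the seed, bases 2 to 8 of the mature microRNA, and the 5 seeds differ from each other.
mmu-miR-675-5p: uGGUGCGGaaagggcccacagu
mmu-miR-675-3p: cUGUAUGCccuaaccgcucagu
mmu-miR-770-5p: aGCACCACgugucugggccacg
mmu-miR-770-3p: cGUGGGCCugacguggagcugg
mmu-miR-1906: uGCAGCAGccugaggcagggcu

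The values are log2 intensities after the authors' RMA normalization, and a level under 5.57 on the stimulated array or 5.59 on the non-stimulated array is called under background. Those limits are the level that 95% of 1400 probesets for olfactory or vomeronasal receptors did not pass, genes which a gut stromal cell is not known to use. Of all genes, 14052 were above background on at least 1 array, and their median difference was 0.00. The level of a probeset depends on its probes, so that the conditions are compared only within a probeset.

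The arrays carried fibroblast RNA. All 10 fibroblast markers were above background, from 7.45 to 13.2 on the stimulated array and from 7.70 to 13.1 on the non-stimulated array. Of 7 eosinophil markers measured, 1 was above background (Alox15, at 5.87 and 5.68). The log2 values of the 7 summed to 33.4 on the stimulated and 33.8 on the non-stimulated array. Such a sum mostly adds levels under background and is no measure of the amount of eosinophil RNA. The granule protein genes Epx (5.25 and 4.73) and Prg2 (4.32 and 4.75) were under background on both arrays. Markers above background numbered 3 of 7 for macrophages, 2 of 6 for neutrophils, 1 of 5 for lymphocytes, 3 of 5 for endothelium, 3 of 7 for epithelium and 5 of 6 for enteric neurons and glia. The highest reading among the markers of these other types was Uchl1 (enteric neurons and glia), at 8.51 on the stimulated and 8.62 on the non-stimulated array. In pooled culture RNA, more cells of a type and more RNA per cell cannot be told apart.

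U90926 was the member with the large difference. Its log2 value was 8.53 on the stimulated array, against 6.48 on the non-stimulated array. This is a log2 difference of 2.05 (stimulated minus non-stimulated), or 4.15-fold higher with homogenate. Both values were above background, by 2.96 and by 0.90 on the log2 scale, so the fold is no bound. It was the seventh highest difference of the 14052 genes above background and the highest of the 601 lncRNA genes among them. Since U90926 was picked for this difference, these ranks support nothing further.

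The other members differed by little. Neat1 read 9.59 on the stimulated and 9.31 on the non-stimulated array, 1.21-fold higher. Malat1 read 12.68 and 12.65, a difference of 0.03. These neighbouring genes gave differences of 0.28 for Neat1 and 0.03 for Malat1, and whether the pair differ from each other was not tested. The protein-coding genes around the pair differed by 0.10 (Frmd8), -0.07 (Slc25a45, a mitochondrial carrier), -0.11 (Ltbp3, which binds latent TGF-beta), 0.01 (Znrd2) and -0.19 (Ehbp1l1), and Tigd3 was under background on both arrays.

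Rian read 8.46 on the stimulated and 8.39 on the non-stimulated array, a difference of 0.06. Meg3, by its own probeset, read 5.88 on the stimulated and 5.67 on the non-stimulated array, a difference of 0.21. Both Meg3 values were close to background, above it by 0.31 and 0.08.

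With no replicates, the width of all differences at like levels is the only scale available. Genes above background were put into 4 bins of 3513 genes by mean level. In the bin that holds U90926 and Rian, the central 95% of differences lay between -0.29 and 0.32. In the brightest bin, which holds Neat1 and Malat1, it lay between -0.25 and 0.29, and in the dimmest bin, which holds Meg3, between -0.50 and 0.48. U90926 was outside its interval, which its choice for a large difference makes certain and from which nothing is read. Neat1 was just inside, and Malat1, Rian and Meg3 were well inside. An absolute difference larger than that of Neat1 was seen in 11.7% of the genes above background.

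Of the 5 measured members, 1 read 2-fold or more above its non-stimulated value and 0 read 2-fold or more below it. The first is U90926, the one chosen for it, and nothing is read from the count. In all, 0.192% of the genes above background were higher by 2-fold or more and 0.0427% lower by as much. By the chosen probesets, all 5 members had a difference above 0 (median 0.21), beside 7064 of 14052 genes (median 0.00). With shared probesets admitted, those that then stood for Meg3 and H19 read lower, which gave 4 of 6 higher and 2 lower (median 0.05). Both are also paired with microRNA genes, so these readings are not of the long RNAs alone.

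**Figure D1:**
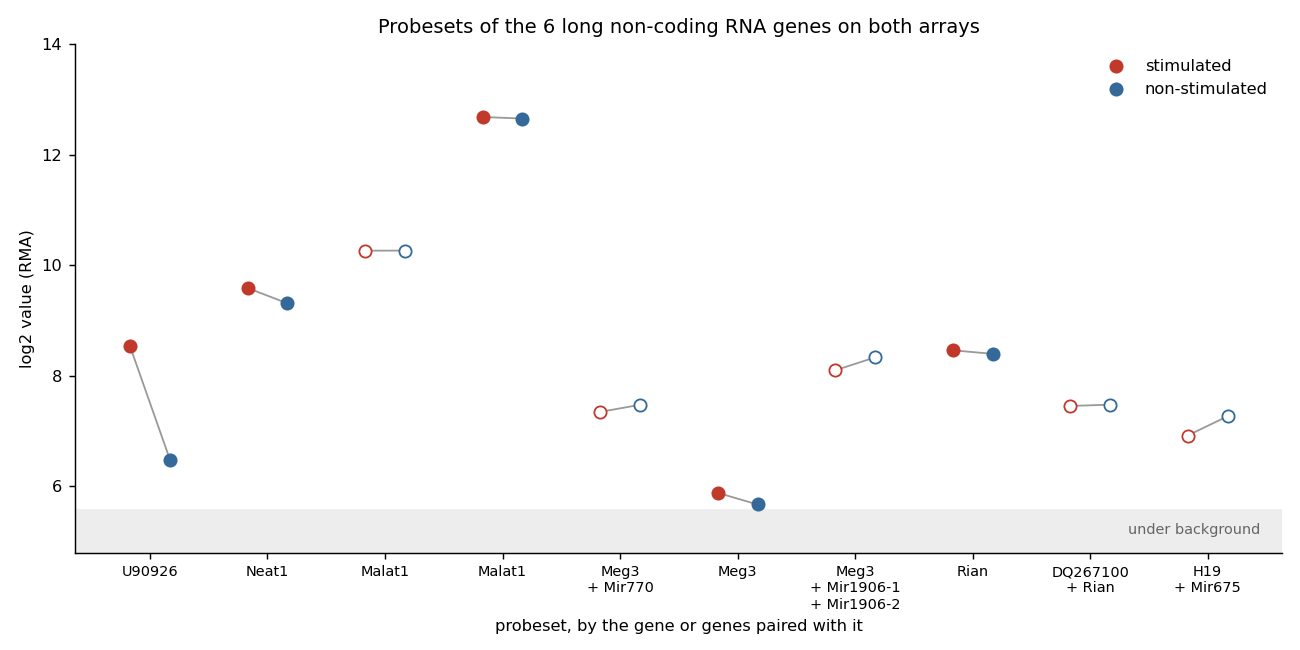
Log2 values (RMA) of every probeset tied to the 6 genes, with the stimulated array at the left (red) and the non-stimulated array at the right (blue) of each pair. Filled points stand for the probeset that the rule chose, open points for a second or shared probeset, and the grey band is the level under background; U90926 (8.53 and 6.48) has the only steep line.

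**Figure D2:**
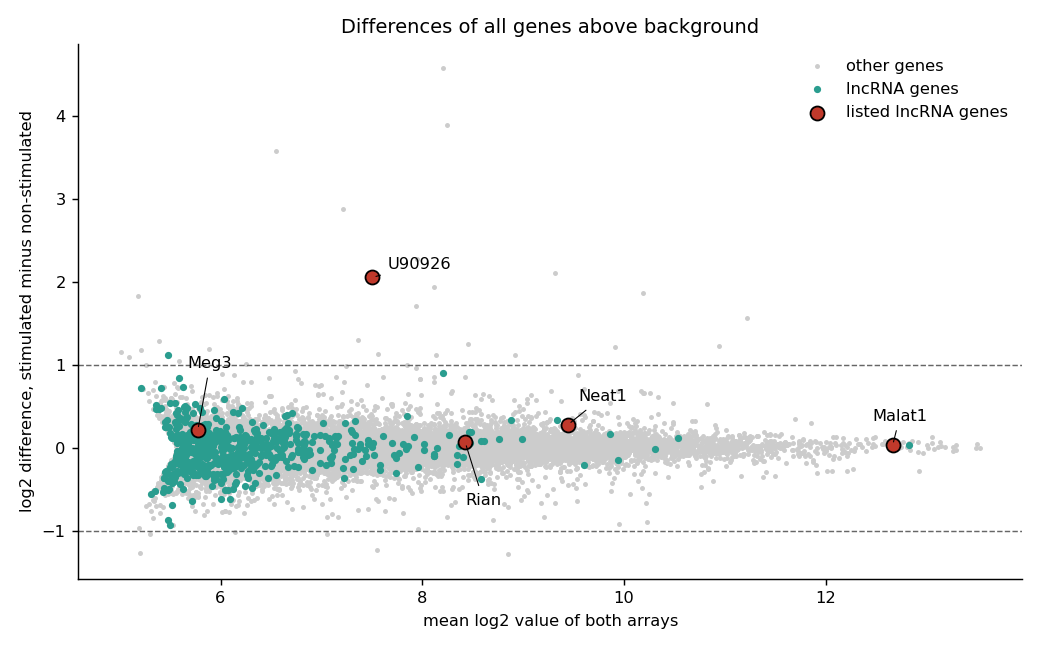
Log2 difference (stimulated minus non-stimulated) against the mean log2 value of both arrays for the 14052 genes above background, with lncRNA genes in green, the 5 measured members in red and dashed lines at 2-fold. U90926 stands at 2.05, far above the other lncRNA genes, and the other 4 members lie within the cloud.

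Several members are covered by more than 1 probeset, and for Meg3 the direction depended on which was read. The probeset shared by Meg3 and Mir770 read 7.34 on the stimulated and 7.47 on the non-stimulated array, a difference of -0.13. The probeset shared by Meg3, Mir1906-1 and Mir1906-2 read 8.10 on the stimulated and 8.33 on the non-stimulated array, a difference of -0.23. The probeset of Meg3 alone was the only one of the 3 that read higher with homogenate.

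The order of probeset numbers gives a hint on the strand that each probeset reads. The genes of the 20 nearest probesets by number on the same chromosome lay on 1 strand for U90926, Rian and the Malat1 probeset that the rule chose, the strand of the member itself. For the probeset of Meg3 alone, 18 of the 20 lay on the minus strand and 2 on the plus strand, whereas Meg3 lies on the plus strand. For the probeset shared by Meg3 and Mir770, all 20 lay on the plus strand. For the probeset shared by Meg3, Mir1906-1 and Mir1906-2, 15 lay on the minus strand and 5 on the plus strand. Its number lies far from those of the other Meg3 probesets, and Mir1906-2 lies on chromosome X. These 20 are thus not close neighbours and give no hint on its strand. Which copy it reads was not tested. The second Malat1 probeset had 18 of 20 on the plus strand, while Malat1 lies on the minus strand. Whether any of these probesets read the opposite strand was not tested, since probe sequences were not used here.

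The second Malat1 probeset read 10.26 on both arrays, with a difference of 0.00. Malat1 thus differed by 0.03 or less by either probeset. The probeset shared by Rian and the small nucleolar RNA gene DQ267100, which lies within Rian, read 7.45 on the stimulated and 7.47 on the non-stimulated array, a difference of -0.02. It was close to 0, as was the Rian probeset.

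The probeset shared by H19 and Mir675 read 6.92 on the stimulated and 7.27 on the non-stimulated array. This is a difference of -0.35, or 1.27-fold lower with homogenate, and it was the furthest down of the 10 probesets tied to the members. It cannot be said from this probeset whether H19, Mir675 or both were lower. Igf2, which shares the imprinted locus, read 6.19 on the stimulated and 6.13 on the non-stimulated array, a difference of 0.06. Mir483, a microRNA gene within Igf2, differed by 0.08 and Mrpl23, a mitochondrial ribosomal protein gene on the other side of H19, by 0.00. Tnnt3, a muscle troponin gene beyond it, differed by 0.03. The lncRNA genes Nctc1 and Igf2os at this locus were under background on both arrays.

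U90926 lies beside the genes of the interferon-induced chemokines Cxcl9, Cxcl10 and Cxcl11 on chromosome 5. Of the 16 array genes nearest to it, 8 on each side, 11 were above background on at least 1 array, and 0 of them differed by 2-fold (background 0.235% either way). On the side away from the chemokines, Uso1 (a vesicle tethering factor), G3bp2 (a stress granule protein) and Cdkl2 (a protein kinase) differed by 0.07, 0.05 and -0.04. On the other side, Naaa (a lysosomal amidase) and Sdad1 differed by 0.02 and 0.20. Ppef2, a protein phosphatase gene, read 5.83 on the stimulated array and was under background at 5.49 on the non-stimulated array.

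The chemokine gene Cxcl10 had the next largest difference at this locus. It read 6.16 on the stimulated array and 5.53, under background, on the non-stimulated array, which leaves a bound of at least 1.49-fold higher. Cxcl9 (5.29 and 4.96) and Cxcl11 (5.01 and 5.15) did not pass the background level on either array and gave no difference. The RefSeq table, made from another mouse strain, types Cxcl11 as a transcribed pseudogene. The median of the 11 neighbours above background was 0.07, with 8 higher and 3 lower, against a median of 0.00 over all genes. Of the locus list of 8 genes, the 3 above background on both arrays were Naaa (0.02), Sdad1 (0.20) and Nup54, a nuclear pore protein gene (0.19). Ppef2 and Cxcl10 passed through the stimulated array alone, so that their direction was set by the filter.

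**Figure D3:**
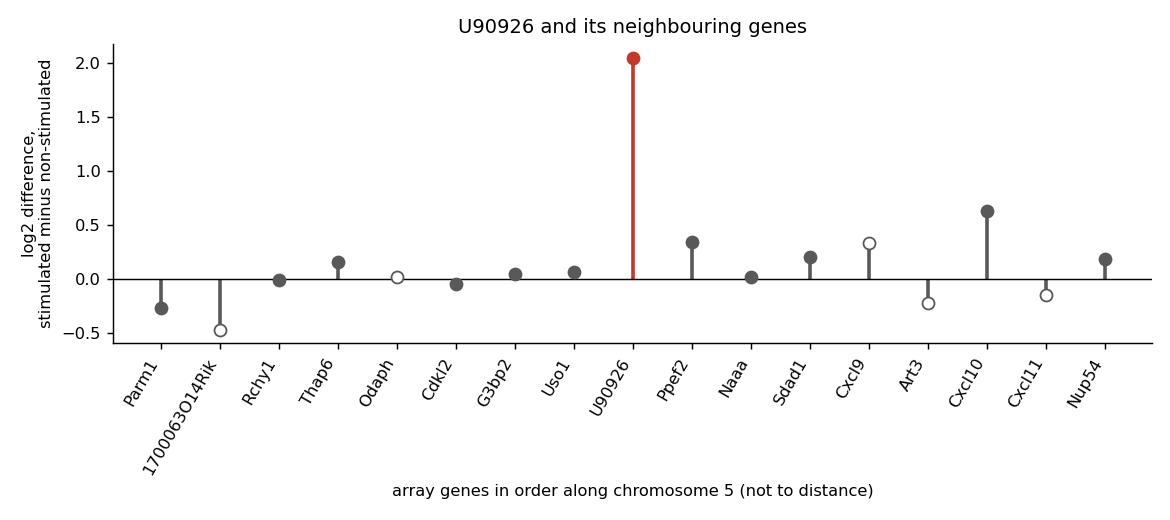
Log2 difference (stimulated minus non-stimulated) of U90926 (red) and the 8 array genes on each side of it, in their order along chromosome 5 and not to distance; open points are genes under background on both arrays. U90926 stands at 2.05, Cxcl10 at 0.63 and every other gene above background between -0.26 and 0.34.

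Genes were ranked by how close their 2 log2 values lay to those of U90926, among 13160 genes above background on both arrays. The ranking uses the values for which U90926 was picked, and it sets levels of different probes side by side, so it is a description only. Closest was Cxcl16 (a chemokine that also binds oxidised lipoprotein), at 8.01 on the stimulated and 6.71 on the non-stimulated array and a distance of 0.57. Mmp3 (stromelysin) followed at 9.09 and 6.82 and Bmp2 (a growth factor of the BMP family) at 8.13 and 7.00, with distances of 0.65 and 0.66. Mmp13 (a collagenase) was next at 8.79 and 7.09, with a distance of 0.66, and Cxcl1 (a neutrophil-attracting chemokine) at 8.66 and 5.78, with a distance of 0.71. No gene lay within 0.1 of U90926, while 17 did so for Neat1, 3 for Malat1, 143 for Meg3 and 203 for Rian. Since U90926 was picked for an extreme difference, nothing is read from these counts. The distance is over 2 values and mixes level with difference.

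For the other members such likeness mainly reflects level. Among the closest to Neat1 was Bmp2k (a protein kinase), at a distance of 0.04. The closest to Malat1 were B2m (the light chain of MHC class I) and Rps6 (a ribosomal protein), at 0.06 and 0.09. The closest to Rian were Cdk2 (a cell cycle kinase) and Slc27a1 (a fatty acid transporter), both at a distance under 0.01. The closest to the probeset of Meg3 alone were the olfactory receptor gene Olfr95 and Alox15, a lipoxygenase. Olfr95, at 5.87 on the stimulated and 5.67 on the non-stimulated array, is of the class of genes that set the background level. The Meg3 reading was thus close to that of a gene of this class.

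Genes linked to U90926 in other cells did not all differ. Of 6 listed, 3 were above background. Fabp4, a fatty acid carrier of adipocytes, read 6.03 on the stimulated array and 4.74, under background, on the non-stimulated array, a bound of at least 1.36-fold higher. Since it passed through the stimulated array alone, its direction was set by the filter. Hif1a, the hypoxia-inducible transcription factor, read 11.09 on the stimulated and 10.56 on the non-stimulated array, 1.44-fold higher. This is the brighter of its 2 probesets, with a log2 difference of 0.53. With the mean of both probesets, the difference of Hif1a, which is also the median of the 3 genes, was 0.34. Mdh2, the mitochondrial malate dehydrogenase, differed by -0.03. Pparg, the master regulator of fat cell differentiation, was under background at 4.89 and 4.76, as were Adipoq (4.82 and 4.71) and the chemokine gene Cxcl2 (5.55 and 5.43).

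Other lncRNA genes give the setting for U90926. The RefSeq table types 1926 genes with a value as lncRNA, and 601 of them (31.2%) were above background on at least 1 array, compared with 68.1% of protein-coding genes. Past 2-fold were 2 of the 601 (0.333%) on the higher side and 0 (0%) on the lower side, beside 0.194% and 0.0465% of protein-coding genes. The first was U90926, which was picked for its difference, so nothing is read from the counts past 2-fold here. The second was Gm19792, at 6.04 on the stimulated and 4.91 on the non-stimulated array. The lower of these is under background, so Gm19792 passed the filter through the stimulated array alone, with a bound of at least 1.37-fold. Of the 487 lncRNA genes above background on both arrays, U90926 alone was past 2-fold (0.205% higher, 0% lower).

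The lncRNA gene next to it on that basis was AI504432, at 8.66 on the stimulated and 7.76 on the non-stimulated array, 1.87-fold higher. The other genes among the highest 5, 6330407A03Rik and 4930474M22Rik, were under background without homogenate, with bounds of at least 1.34-fold and 1.33-fold higher. Of the lowest 5, Gm10584 was above background on both arrays, at 5.69 on the stimulated and 6.31 on the non-stimulated array, 1.54-fold lower. The remaining 4, 1700044K03Rik, Gm15217, 1600010M07Rik and Gm14635, were under background with homogenate, with bounds between 1.23-fold and 1.39-fold lower. Their roles are not described here.

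Among 52 other lncRNA genes with established names, 41 were above background, 23 of them higher and 18 lower, with a median of 0.04. Past 2-fold were 0 of the 41, beside 0.235% of all genes above background either way. Snhg11, a small nucleolar RNA host gene, was the furthest, at 5.83 on the stimulated and 6.33 on the non-stimulated array, 1.42-fold lower. Bvht, a transcript of the heart muscle lineage, was under background with homogenate (5.30 and 5.73). Carmn, which is expressed in smooth muscle and neighbours the microRNA genes Mir143 and Mir145, read 8.40 on the stimulated and 8.78 on the non-stimulated array, 1.30-fold lower.

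In the domain that holds Meg3 and Rian, 55 array genes stood between Dlk1 and Dio3, both included. Dlk1, a Notch-like protein expressed from the paternal chromosome, read 5.55 on the stimulated array, under background, and 5.78 on the non-stimulated array. Dio3, the deiodinase that inactivates thyroid hormone, read 5.64 on the stimulated array and 5.28, under background, on the non-stimulated array. Of the wider list of 7 measured domain and flanking genes, 3 were higher and 4 lower (median -0.12). Begain, a flanking gene, read 5.80 on the stimulated and 6.15 on the non-stimulated array, the largest difference there between values above background on both. Wdr25, on the same flank, differed by 0.14. Of the microRNA genes next to Meg3 or Rian in array order, Mir673 differed by -0.19, Mir665 by 0.29, Mir341 by 0.23 and Mir1188 by -0.22, each above background on both arrays. Mir493 and Mir3070a were above it on 1 array, and Mir337, Mir3070b and Mir370 on neither.

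The 5 small nucleolar RNA genes of the domain, which follow the start of Rian, had a median of -0.18, with 4 lower and 1 higher. AF357425 read 10.11 on the stimulated and 10.28 on the non-stimulated array, and AF357426 read 7.58 and 7.95. Of small nucleolar RNA genes elsewhere, 55 of 74 were lower, with a median of -0.17, and a difference between the sets was not tested. The Rian probesets differed by 0.06 and -0.02.

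Of 43 microRNA genes in the domain, 25 were under background on both arrays. Among the other 18, 7 were higher, 10 lower and 1 equal, with a median of -0.10, compared with a median of 0.01 over 151 microRNA genes elsewhere. A difference of 0.5 or more was seen for 3 of the 18 and for 14 of the 151 (9.27%). All 3 were under background on 1 array. Mir494 read 5.59 on the stimulated and 4.88 on the non-stimulated array, Mir679 read 6.12 and 5.51, and Mir382 read 5.22 and 5.76. These leave bounds of at least 1.00-fold and 1.45-fold higher for Mir494 and Mir679 and of at least 1.14-fold lower for Mir382. Over the 11 above background on both arrays, differences ran from -0.43 to 0.34, with 4 higher and 6 lower. The ends of that range were Mir329, at 6.65 on the stimulated and 7.08 on the non-stimulated array, and Mir409, at 6.11 and 5.77. These probesets cover short precursors, and they do not measure mature microRNAs apart from the transcripts they are cut from.

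The mature sequences of Mir329 and Mir409 are shown, with the seed in capitals, because these were the lowest and the highest difference among the domain's microRNA genes above background on both arrays. No seed was shared among them or with miR-675, miR-770 and miR-1906.
mmu-miR-329-5p: aGAGGUUUucugggucucuguu
mmu-miR-329-3p: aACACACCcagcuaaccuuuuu
mmu-miR-409-5p: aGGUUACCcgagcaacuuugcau
mmu-miR-409-3p: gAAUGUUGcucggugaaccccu

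**Figure D4:**
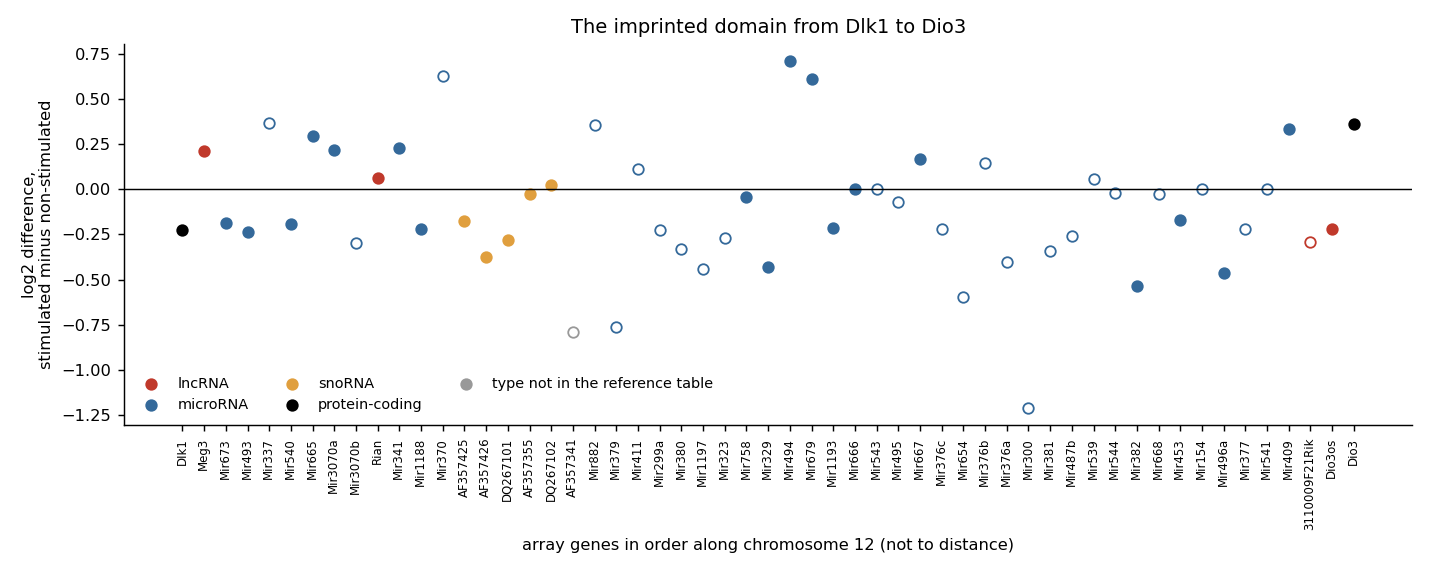
Log2 difference (stimulated minus non-stimulated) of the 55 array genes from Dlk1 to Dio3, in their order along chromosome 12 and not to distance, coloured by type; open points are genes under background on both arrays. Meg3 (0.21) and Rian (0.06) lie near 0, all but 1 of the 5 snoRNA genes lie below 0, and the microRNA genes scatter on both sides.

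Imprinted genes outside the domain differed by small amounts. Of 25 above background, 8 were higher and 17 lower, and their median was -0.07, while 6761 of all 14052 genes were lower. Past 2-fold were 0 of the 25, beside 0.235% of all genes above background either way. Cdkn1c, a maternally expressed inhibitor of the cell cycle, read 6.78 on the stimulated and 7.23 on the non-stimulated array, 1.37-fold lower. Impact, a regulator of translation, was 1.24-fold higher (10.86 and 10.55), and the zinc finger gene Zim1 was 1.21-fold lower (5.82 and 6.09).

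The protein partners of Neat1 and Malat1 differed little. Of 31 paraspeckle protein genes, 19 were higher and 11 lower (median 0.04). The core proteins Sfpq, Nono and Pspc1 differed by 0.19, 0.00 and 0.04. The splicing regulator Celf6 was the furthest, at 6.34 on the stimulated and 5.78 on the non-stimulated array, 1.47-fold higher, and it was the only one past 0.5. Ss18l1, a chromatin remodelling subunit, was 1.17-fold lower and Mex3a, an RNA-binding protein, 1.16-fold higher.

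Of 27 nuclear speckle and splicing factor genes, 16 were higher and 11 lower (median 0.02). U2af1, which recognises the 3′ splice site, was 1.22-fold lower (9.22 on the stimulated and 9.52 on the non-stimulated array). The splicing regulator Tra2a was 1.16-fold higher (9.54 and 9.32), and the splicing coactivator Srrm1 was 1.11-fold lower.

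The enzymes that cut the end of Malat1 were 11 genes of RNase P and RNase Z, with 5 higher, 6 lower and a median of -0.03. Rpp21 read 5.89 on the stimulated and 6.37 on the non-stimulated array, 1.39-fold lower, and Rpp38 and Rpp14 were 1.11-fold and 1.09-fold lower. Of 11 genes of Polycomb repressive complex 2, a chromatin silencer reported to bind Meg3 and H19 RNA, 7 were higher and 4 lower (median 0.04). The catalytic subunit gene Ezh2 was 1.11-fold higher (8.06 and 7.91), and Phf19 and Rbbp4, an accessory and a core subunit, were each 1.09-fold higher. The imprinted, paraspeckle, speckle, RNase and Polycomb lists held 0 members past 2-fold, and no list was tested. This is near the share of all genes above background past 2-fold either way, 0.235%, so nothing is read from it.

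**Figure D5:**
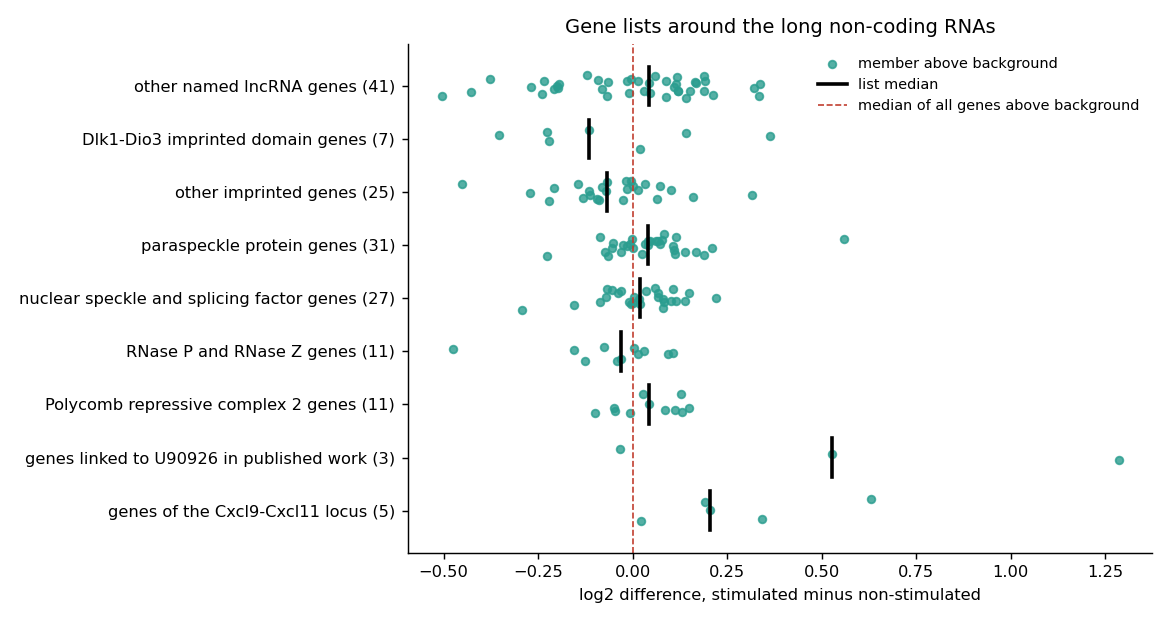
Log2 difference (stimulated minus non-stimulated) of the members above background of each gene list, with their number in brackets, the list median as a black bar and the median of all genes above background as a dashed line. Most medians lie within 0.12 of 0, and the higher ones belong to lists of 3 and 5 genes. In these, Fabp4, Ppef2 and Cxcl10 passed the filter through the stimulated array alone, so nothing is read from those medians.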

How the data were processed

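The deposited log2 values, 1 per probeset and array, were used as they stand. The authors made them with RMA in Affymetrix Expression Console, per the submitters' processing notes. Genome build and versions: not given in the sources used here. Quantile normalization is part of RMA, and the distributions of both arrays, sorted, were at most 0.0757 apart, so that a shift common to all genes cannot be seen. Of 41345 probesets, the platform annotation pairs 23521 with 1 gene, 1814 with more than 1 and 16010 with none, and 23328 matched the RefSeq gene table (GRCm38.p6), which gave current symbols, gene types and gene order. Python 3.11.15, pandas 2.3.3 and numpy 2.4.6 were used. With 1 array per condition there is no test, and the number of arrays limits the precision. Differences were counted past 2-fold among genes above background on at least 1 array. Where 1 of the values is under background, the fold is a bound against that array's background level. The counting was tested on simulated data. Nearest genes were ranked by Euclidean distance over both log2 values. Of these, 1 is not reported here. Named genes were the members, the nearest genes, the 5 highest and 5 lowest lncRNA genes, the 3 array genes on each side of a member, up to 3 furthest genes of each list and list members that the background names. Others, chosen after their values were seen, were Nup54, Mir329, Mir409, Mir494, Mir679, Mir382, the marker Uchl1 and the 2 small nucleolar RNA genes. Also named outside these rules were the list members Cxcl9, Cxcl11, Pparg, Adipoq and Cxcl2 and the markers Epx and Prg2, all under background on both arrays. The members and lists were chosen with earlier results of these data known. Alternatives were other probeset choices, thresholds, background levels and centrings. A label gives eosinophils as the sample source, but the protocols name myofibroblasts.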

Additional observations from a re-analysis of the deposited data

How the results depend on the processing

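No paired analysis was possible because each condition has 1 array. The differences of U90926, Neat1, Malat1 and Rian moved by less than 0.1 on the log2 scale under every setting run. Probeset settings were the mean or the dimmest of a gene's probesets and shared probesets admitted. The others were centring on the median or on a lowess trend and values raised to background. Several could not change a value. U90926, Neat1, Meg3 and Rian have 1 probeset of their own, and all 5 measured members were above background on both arrays. U90926 and Neat1 have no shared probeset. Values unchanged for these reasons say nothing on stability. The difference of Meg3 moved with shared probesets admitted, an alternative chosen after seeing the data, to -0.23. A probeset with a higher mean then stands for the gene, and it is also paired with Mir1906-2 on chromosome X. Of lncRNA genes past the threshold, 7 were higher and 6 lower at 1.5-fold, 1 was higher at 3-fold, 5 higher and 3 lower with no background filter, and 1 higher with the background at the 99th percentile or values raised to it. The median of genes linked to U90926 was 0.53 over 3 genes, of which Fabp4 passed the filter through the stimulated array alone. This median was 0.12 with no filter, 0.25 at the 99th percentile and 0.34 with the mean of probesets, so nothing is read from it. The median of the domain's small nucleolar RNA genes was -0.0026 once centred on all genes of that type. The other 43 counts and 83 differences or medians kept within 1.5 times or within 0.1. Some of these could not move, for the reasons given above, so the totals do not measure stability.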
